A study of Oryzias latipes with 15 samples.

Results

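Vitamin C alone was set against control in the testis of the medaka (Oryzias latipes), an egg-laying freshwater fish and a laboratory model. The comparison rests on 6 of the 15 RNA-seq libraries of the study: 3 from control testes, with 0 mg/L of either agent, and 3 from testes of fish given 3 mg/L vitamin C and no perchlorate. The other libraries form 3 groups of 3, from fish given 0.01 mg/L potassium perchlorate (KClO4, the low dose), 10 mg/L (the high dose), or 10 mg/L together with 3 mg/L vitamin C. Perchlorate blocks iodide uptake into the thyroid. The labels give no strain, age, route or length of exposure, and leave it unsaid if single fish or pools made a replicate. All genes were compared: of 23028 genes in the deposited table, 17778 had a mean normalized read count of at least 10 over the 15 libraries and were tested.

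Vitamin C (ascorbate) is a water-soluble antioxidant and an electron donor. It keeps the iron of 2-oxoglutarate-dependent oxygenases in its reduced form, and this enzyme family includes the prolyl and lysyl hydroxylases of collagen, the hydroxylases that mark hypoxia-inducible factors for decay, the TET enzymes that oxidise methylcytosine and the JmjC histone demethylases. Like primates, most bony fish cannot make vitamin C and take it up through sodium-coupled transporters of the SLC23 family. In the testis of mammals it is known to protect germ cells and steroid-making cells from oxidation.

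Control libraries held 7.82 to 13.0 M reads and vitamin C libraries 7.86 to 15.04 M. Germ cell and Sertoli cell markers were high in all 6 libraries, as the label testis requires: ddx4 (vasa) lay between 11793 and 19218 normalized counts and gsdf, a Sertoli cell growth factor, between 6822 and 9309. On the first principal component of the 6 libraries, which held 52.3% of the variance, the controls lay at -49.9 to -11.8 and the vitamin C libraries at 19.2 to 48.4. The second component held 20.2% and set control replicate 3, at 47.1, apart from the other 5 libraries, at -25.6 to 0.596. Kidney and gut genes were highest in that library: slc12a3 was at 58.3, 26.2 and 330 in the controls, against 34.1 to 66.1 with vitamin C.

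Few genes passed the test for vitamin C alone. In a limma fit with 1 spread per gene over all 15 libraries, 54 genes were higher with vitamin C (0.304% of those tested) and 18 were lower (0.101%), at a Benjamini-Hochberg adjusted p under 0.05. In all 72 (0.405%) the 3 vitamin C values lay outside the range of the 3 controls, where over all genes 14.6% lay wholly above the controls and 13.0% wholly below. The calls were made on these same values, so this separation is no further support for them. At an unadjusted p under 0.05, 777 genes were higher (4.37%) and 928 lower (5.22%), so nearly all genes at that unadjusted p missed the adjusted threshold. The median log2 fold change over all genes was -0.01, and that of the absolute change of the 72 was 2.84. Of the 54 higher genes 21 have a symbol, and of the 18 lower genes 9.

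**Figure D1:**
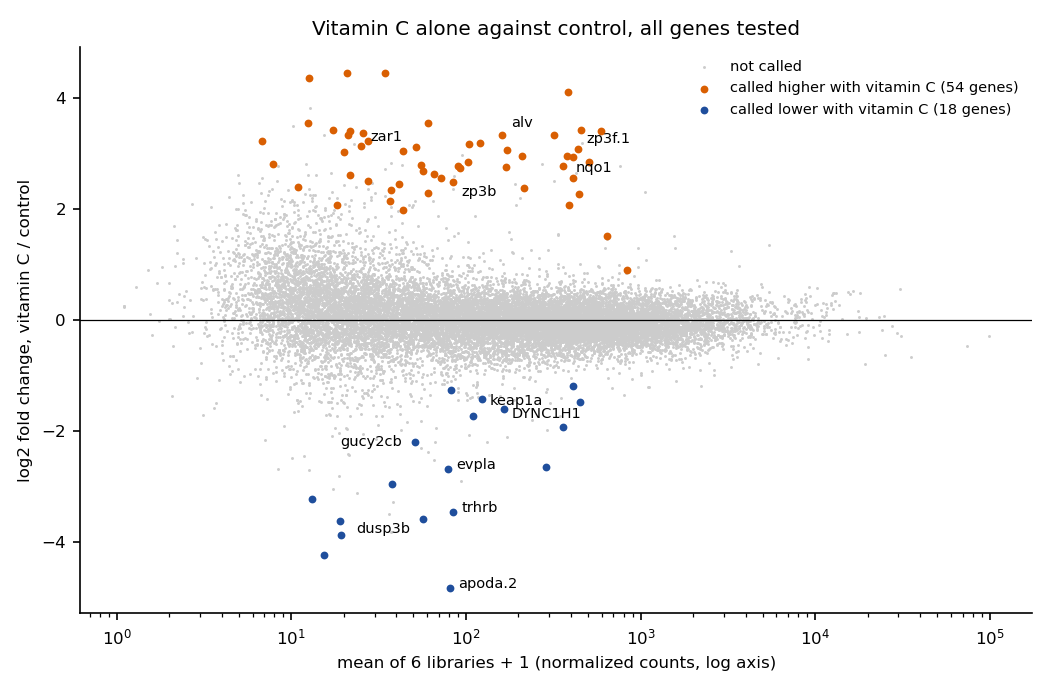
Log2 fold change of vitamin C alone against control (y axis) by mean normalized count of the 6 libraries plus 1 (x axis, log), with 1 point per gene tested and n = 3 libraries per group. The 54 genes called higher are orange and the 18 called lower are blue; nearly all called genes differed by more than the cloud of grey points at the same level.

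The number of calls depended on which libraries set the spread and on single libraries. A fit over the 6 control and vitamin C libraries alone called 394 genes higher (2.22%) and 277 lower (1.56%), and a fit over 12 libraries, without the low dose, 186 higher (1.05%) and 120 lower (0.675%). Both fits tested the same 17778 genes, which were still chosen by their mean over all 15 libraries. DESeq2 on the reads recovered from the values called 134 higher (0.754%) and 123 lower (0.692%). All 72 genes were among the calls of each. Without vitamin C replicate 3 the fit over the remaining libraries called 6 genes higher and 2 lower. The counts were 10 and 6 without vitamin C replicate 1, 19 and 6 without replicate 2, 15 and 6 without control replicate 1, and 14 and 3 without control replicate 2, while without control replicate 3 they were 59 and 25. No called gene changed its sign in any of these fits, and 8 of the 72 were called in all 6 fits that left out 1 library.

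Of the 41 gene lists examined, that of the oocyte and egg coat held the most called genes. Lists and members were chosen with earlier results of these data known, so this rank is no independent evidence. Of 17 such genes with a row, 16 were tested. Of these, 6 were higher with vitamin C, beside 0.304% of all genes, and none lower. The median log2 fold change of the 16 was 2.11, beside -0.01 over all genes. Genes entered the test by their mean over 15 libraries. For most members that mean is set mostly by the low-dose libraries, where they are far higher. The exceptions were LHX8, with a mean of 17.8 at the low dose and 24.2 in control, and ctsba, with 2246 and 1936. All of the tested members were detected in both groups, and none of the defining markers was at 0.

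The egg coat gene zp3b, a zona pellucida glycoprotein, was at 21.2, 32.4 and 21.4 normalized counts in the controls and at 130, 146 and 150 with vitamin C. The vitamin C values were close together and all above the highest control. The log2 difference was 2.48 ± 0.47 (SE, n = 3 per group, adjusted p = 0.0287). zp3f.1, of the same family, was at 71.0, 122 and 82.4 in the controls and at 606, 651 and 1102 with vitamin C, a log2 difference of 3.07 ± 0.63 (adjusted p = 0.0435). Its near neighbour zp3f.2 had almost the same values and a log2 difference of 3.19 ± 0.68, but missed the threshold (adjusted p = 0.0578). The sources used here do not say how reads were shared among such similar copies, so values of single egg coat genes are uncertain.

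alv encodes alveolin, a protease of the egg's cortical alveoli in medaka. It was at 28.6, 27.4 and 27.5 in the controls and at 256, 247 and 379 with vitamin C, with no overlap and a control spread of 0.688 (SD). The log2 difference was 3.33 ± 0.47 (adjusted p = 0.00568). zar1, an RNA-binding protein of the oocyte that holds maternal transcripts, was at 8.48, 11.2 and 9.38 in the controls and at 89.0, 73.4 and 114 with vitamin C (log2 difference 3.11 ± 0.47, adjusted p = 0.00814). sybu, syntabulin, which moves maternal determinants along microtubules in zebrafish eggs, was at 14.8, 22.4 and 14.1 against 101, 85.7 and 147 (2.63 ± 0.51, adjusted p = 0.0306). The sixth call was org, the oogenesis-related gene of zebrafish, chosen here after its values were seen, at 67.9, 78.5 and 57.0 in controls and 308, 294 and 487 with vitamin C (2.38 ± 0.49, adjusted p = 0.0486). In alv, zar1, sybu and org alike, vitamin C replicate 3 was the highest of the 6 control and vitamin C libraries.

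Other oocyte genes missed the threshold. gdf9, a growth factor secreted by the oocyte, was at 29.7, 33.6 and 30.2 in the controls and at 27.7, 30.3 and 36.6 with vitamin C, so that the groups overlapped (log2 difference 0.01 ± 0.51, adjusted p = 0.998). figla, a transcription factor that switches on egg coat genes in oocytes, was at 42.4, 53.6 and 56.3 against 69.6, 54.8 and 74.3 (0.38 ± 0.47, adjusted p = 0.885). cpeb1b, LHX8, ctsba and cyp19a1a also overlapped or missed the threshold, with log2 differences of -0.17 to 0.67. bmp15, another oocyte growth factor, lay above the controls in all 3 vitamin C libraries, at 27.1, 26.4 and 29.5 against 5.30, 6.23 and 10.1, but missed the threshold (1.85 ± 0.55, adjusted p = 0.236). In the fit over 6 libraries it passed, as did zp3f.2, zar1l and mos, which made 10 of the 16 higher, beside 2.22% of all genes.

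**Figure D2:**
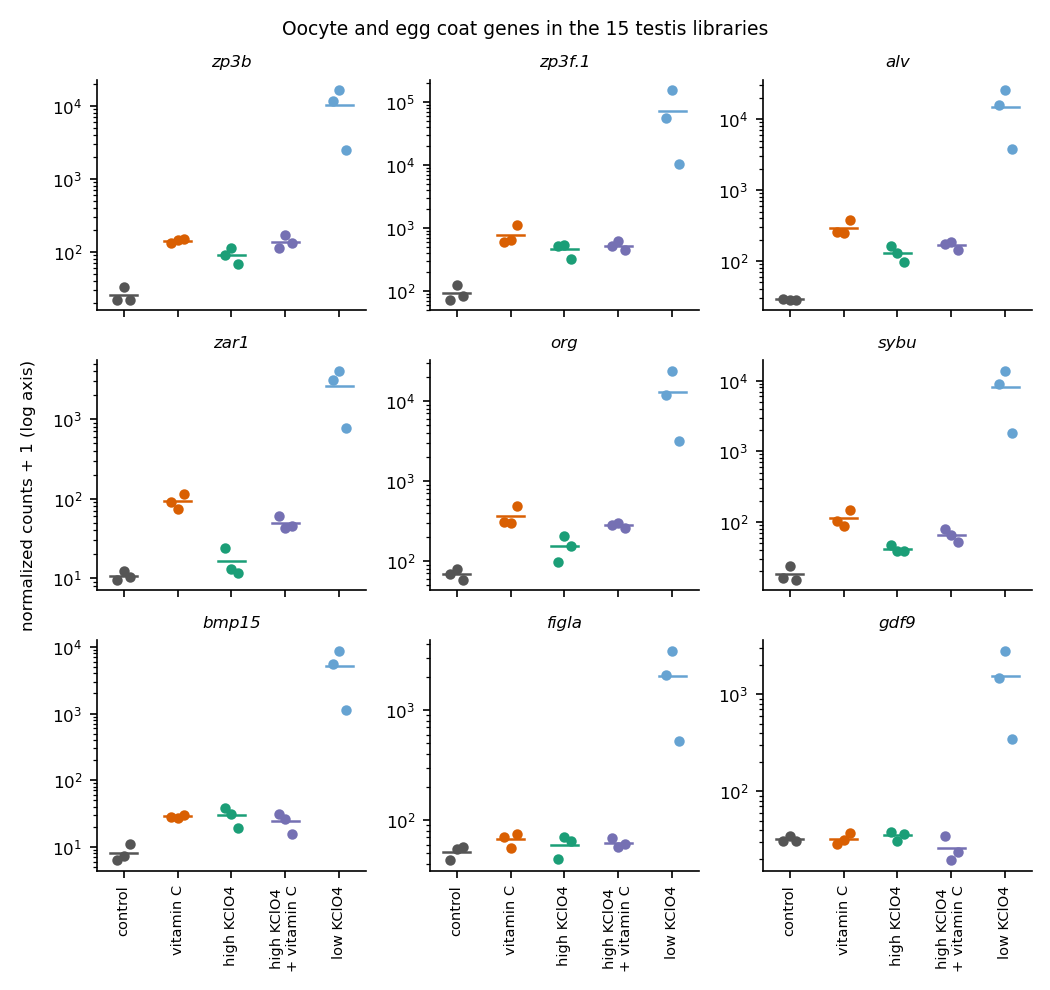
Normalized counts plus 1 (y axis, log scale, a separate scale per panel) of 9 oocyte and egg coat genes in the 15 testis libraries by group (x axis); points are libraries and bars are group means, n = 3. zp3b, zp3f.1, alv, zar1, org and sybu are higher with vitamin C alone than in control, gdf9 is not, and the low-dose libraries lie far above all others in every panel.

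Summed over the 16 tested genes, oocyte and egg coat genes made up 0.0256 to 0.0313% of all normalized counts in the controls and 0.0496 to 0.0685% with vitamin C alone. The sum was 0.0395 to 0.0506% at the high dose, 0.0475 to 0.0530% at the high dose with vitamin C and 0.438 to 3.04% at the low dose, so the controls were the lowest of all 5 groups. Most of the control sum came from 1 member, ctsba, which differed little between the groups. It held 1688, 2204 and 1915 of 2384, 3048 and 2595 counts in the controls. With vitamin C it held 1610, 1675 and 1837 of 4395, 4507 and 6348. In whole testis, more cells of a type and more RNA per cell cannot be told apart. The difference between vitamin C and control was also expressed as a percentage of the low-dose mean. It was 3.12% for zar1, 1.78% for alv, 1.17% for zp3b, 0.399% for bmp15 and 0.0234% for gdf9. The low-dose libraries were widely spread, at 5137 ± 3833 for bmp15 and 1538 ± 1234 for gdf9 (mean ± SD, n = 3). The percentages carry no error, and if they differ between genes was not tested. The call count of this list rests on all 6 libraries: 2 of the 16 genes were called when control replicate 1, 2 or 3 or vitamin C replicate 1 or 2 was left out, and 0 without vitamin C replicate 3. The list's median log2 fold change stayed between 1.96 and 2.17 in those 6 fits.

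Among the other named genes that rose, most were also far higher at the low dose. nqo1 encodes an NAD(P)H quinone reductase, a classic target of the antioxidant factor Nrf2 in mammals. It was at 81.7, 86.0 and 83.1 in the controls and at 550, 540 and 938 with vitamin C (log2 difference 2.95 ± 0.51, adjusted p = 0.0185). The groups did not overlap, and the control values differed by less than 5 counts. At the low dose nqo1 stood at 38748, 78993 and 9001, and at the high dose at 373, 301 and 214. ctss, the lysosomal protease cathepsin S, rose from 36.6 ± 15.8 to 305 ± 97.4 (mean ± SD, n = 3; log2 difference 3.06 ± 0.61, adjusted p = 0.0394). acp5a, a tartrate-resistant acid phosphatase, rose from 19.8 ± 1.29 to 122.7 ± 31.0 (2.55 ± 0.45, adjusted p = 0.0187). cth1, a zinc finger protein of the family that binds AU-rich RNA, was at 19.1, 14.95 and 7.37 against 108, 79.9 and 97.9 (2.78 ± 0.43, adjusted p = 0.00926). zpax1, a zona pellucida domain protein that the oocyte list did not hold, rose from 127 ± 46.2 to 885 ± 151 (2.84 ± 0.53, adjusted p = 0.0278). si:dkey-208k4.2, which has no role given here, rose by 2.85 ± 0.49 (adjusted p = 0.0158).

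Over the 54 genes that rose, 40 had all 3 low-dose values above all 3 vitamin C values, 9 had all 3 below, and 5 overlapped. Genes entered the test by a mean that includes the low dose. ENSORLG00000022322, for example, averaged 0.353 in control, 11.3 with vitamin C and 468 at the low dose. Neither this split nor the following count was made over all tested genes, so neither has a background beside it. Vitamin C replicate 3 was the highest of the 3 vitamin C libraries in 39 of the 54, and it also had the highest summed share of oocyte and egg coat genes, 0.0685%, and the fewest reads of its group, 7.86 M. The part of oocyte RNA in the rises of nqo1, ctss, acp5a and cth1 was not tested. 33 of the 54 have no symbol in the table. Among these ENSORLG00000030434 had the smallest adjusted p; it was at 49.8, 66.04 and 20.8 in the controls and at 810, 638 and 727 with vitamin C (4.10 ± 0.45, adjusted p = 0.00142), and was called in all 6 fits without 1 library.

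In other rises the low-dose values were not all above those of vitamin C. Both entries with the symbol Gb-alpha1 rose: ENSORLG00000005297 was at 118, 95.9 and 143 in the controls and at 737, 616 and 731 with vitamin C (2.55 ± 0.40, adjusted p = 0.0113), and ENSORLG00000005210 was at 38.2, 33.6 and 59.0 against 328, 231 and 322 (2.75 ± 0.50, adjusted p = 0.0249). As the entries share a symbol, their reads may be shared between copies. At the high dose the first was at 1988, 2942 and 1166, and with the high dose and vitamin C at 402, 138 and 176. Outside the rule for named genes and picked after their values were seen, 5S_rRNA, a multi-copy gene whose counts are uncertain, was at 164, 92.2 and 218 against 826, 726 and 619. The neuronal enolase ENO2 was at 6.36, 4.98 and 17.4 against 76.7, 68.9 and 82.6, the melanin synthesis gene tyrp1b at 13.8, 14.95 and 20.8 against 54.8, 56.0 and 95.6, and the light-sensing melanopsin opn4b at 1.06, 2.49 and 4.69 against 13.6, 18.04 and 20.1. In each of these 4 genes all vitamin C values lay above all control values, and each was called higher.

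The 18 lower genes include 8 that met the naming rule. dusp3b, a dual-specificity phosphatase, had the smallest adjusted p. It was at 138, 51.1 and 124 normalized counts in the controls and at 6.49, 4.51 and 11.8 with vitamin C, a log2 difference of -3.58 ± 0.40 (adjusted p = 0.00142). The lowest control was above the highest vitamin C library by more than the whole vitamin C range, and this was the only gene with a role named here that was called in all 6 fits that left out a library. Its other group values were 38.9, 47.9 and 43.5 at the low dose, 17.2, 21.8 and 19.1 at the high dose, and 9.70, 14.4 and 11.4 at the high dose with vitamin C, so the controls were the highest group.

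trhrb encodes a receptor for thyrotropin-releasing hormone. It was at 125, 182 and 155 in the controls and at 13.0, 11.6 and 14.2 with vitamin C (-3.47 ± 0.56, adjusted p = 0.0113). The vitamin C libraries were also below every library of the other 3 groups, which lay at 24.0 to 206 at the low dose, 84.0 to 177 at the high dose and 53.7 to 131 at the high dose with vitamin C. The call was lost without control replicate 2 and without each of the vitamin C replicates, with an adjusted p of at most 0.0866. evpla, envoplakin, which ties keratin filaments to desmosomes, was at 137, 163 and 106 against 21.8, 23.2 and 15.3 (-2.69 ± 0.39, adjusted p = 0.00692). gucy2cb, a receptor guanylate cyclase, was at 92.3, 91.0 and 67.7 against 15.9, 19.3 and 16.5 (-2.20 ± 0.44, adjusted p = 0.0361). In evpla the vitamin C values lay below those of every other library of the study, whereas gucy2cb at the low dose, at 14.3, 14.4 and 57.0, reached as low.

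keap1a encodes the adaptor that hands Nrf2 to degradation. It was at 173, 184 and 174 in the controls and at 54.8, 87.0 and 59.0 with vitamin C, 2.65 times lower in mean (log2 difference -1.42 ± 0.25, adjusted p = 0.0185). Low-dose libraries, at 153, 163 and 161, lay near the controls, and high-dose libraries, at 60.3, 82.2 and 101, near vitamin C alone. DYNC1H1, the heavy chain of cytoplasmic dynein, was at 271, 274 and 188 against 114, 88.3 and 47.2 (-1.61 ± 0.32, adjusted p = 0.0354), and zgc:113142 fell by 1.26 on the log2 scale (SE 0.25, adjusted p = 0.0340). In both genes every perchlorate library also lay below the controls. DYNC1H1 was at 78.1 to 88.7 at the low dose, 97.7 to 184 at the high dose and 76.4 to 131 at the high dose with vitamin C. In the same order zgc:113142 was at 73.6 to 76.7, 57.1 to 74.4 and 58.6 to 93.5, beside 104 to 124 in the controls. apoda.2, a lipocalin that carries small lipids, was at 38.2, 46.1 and 387 in the controls and at 4.72, 0.644 and 2.36 with vitamin C (-4.82 ± 0.996, adjusted p = 0.0478). Control replicate 3 stands far above the other controls in apoda.2. Without it the log2 difference was -3.76 (adjusted p = 0.119). The call was lost whichever single control or vitamin C library was left out, at an adjusted p of 0.0851 to 0.243. Those of gucy2cb and zgc:113142 were also lost in each of these fits. cacng6a, a calcium channel subunit outside the naming rule because of its low mean, was also called lower, at 26.5, 39.9 and 36.2 against 0.590, 3.22 and 2.36.

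**Figure D3:**
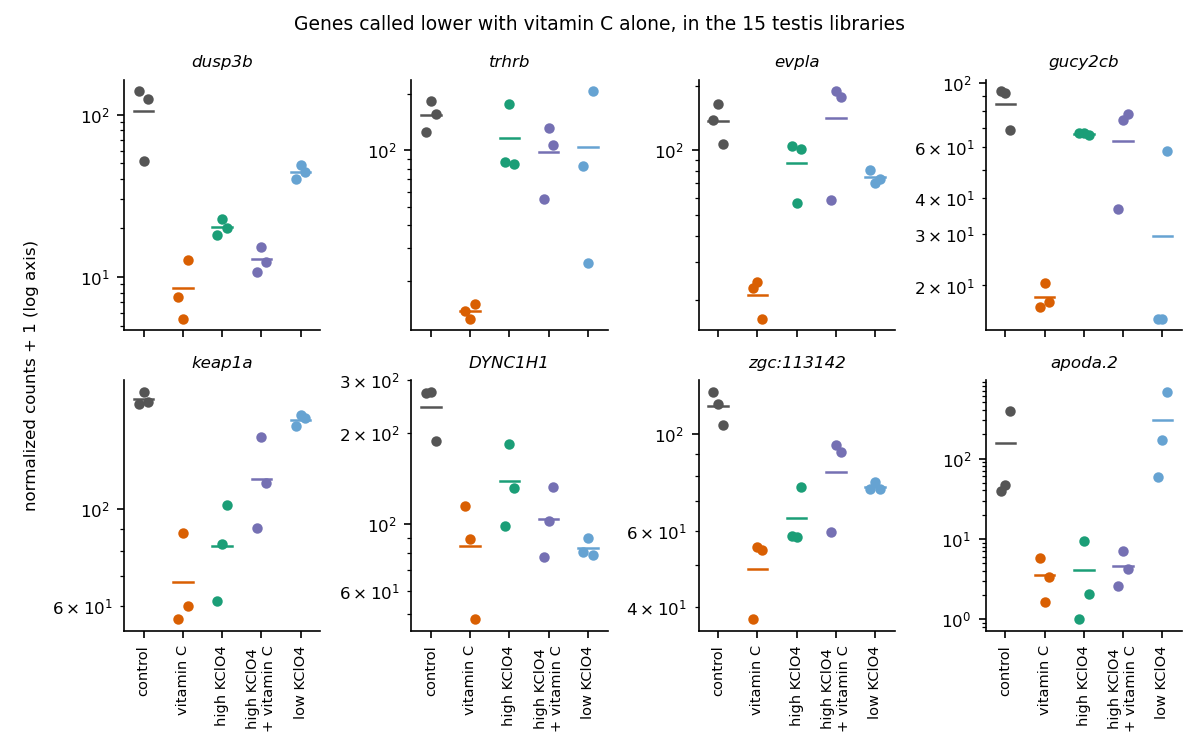
Normalized counts plus 1 (y axis, log scale, a separate scale per panel) of 8 genes called lower with vitamin C alone, in the 15 testis libraries by group (x axis); points are libraries and bars group means, n = 3. trhrb and evpla are lower with vitamin C alone than in every other library, dusp3b is highest in the controls, and control replicate 3 is the high point of the apoda.2 controls.

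None of the lists built around the biochemistry of vitamin C held a called gene, apart from the antioxidant list. Of 10 genes for uptake and recycling of vitamin C and its oxidised form, 8 were tested and 0 called, with a median log2 fold change of 0.09. SLC23A2, the sodium-coupled transporter, was at 68.9, 72.3 and 59.6 in the controls and at 62.5, 47.7 and 60.2 with vitamin C (-0.24 ± 0.35, adjusted p = 0.905). slc23a1, its epithelial relative, was too low to be tested. Of 17 tested genes of collagen hydroxylation and folding 0 were called (median -0.00). The prolyl hydroxylase subunit p4ha1b was at 194, 226 and 223 against 224, 203 and 214 (-0.00 ± 0.20), p4ha2 changed by -0.24 ± 0.27, and the lysyl hydroxylases plod1a, plod2 and plod3 by 0.27 ± 0.21, 0.07 ± 0.26 and -0.16 ± 0.29. These values overlapped or differed by little more than their standard error, with adjusted p from 0.761 to 0.999. The 18 tested collagens had a median of 0.10 and 0 calls.

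TET and DNA methylation genes numbered 13, with 0 calls and a median of -0.10. TET1 was at 1513, 1245 and 1086 against 1400, 1032 and 1142 (-0.10 ± 0.30), TET2 changed by -0.21 ± 0.25, tet3 by -0.14 ± 0.22 and the maintenance methyltransferase dnmt1 by -0.21 ± 0.24. The oxygen-sensing prolyl hydroxylases EGLN1 and egln3 changed by -0.03 ± 0.37 and -0.23 ± 0.25, among 19 other ascorbate-dependent oxygenases with 0 calls and a median of -0.01. The 13 tested hypoxia response genes had a median of -0.20 and 13 iron-handling genes one of -0.14, with 0 calls each. Of 22 tested JmjC demethylases 0 were called (median -0.24): 7 were below the controls without overlap and 2 above. Over all genes 13.0% lay wholly below the controls and 14.6% wholly above. riox1, a JmjC histidine hydroxylase of the ribosome and chosen here after its values were seen, was at 306, 303 and 281 against 569, 551 and 685 (1.01 ± 0.36, adjusted p = 0.352), and passed in the fit over 6 libraries (adjusted p = 0.000870).

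Antioxidant and glutathione genes numbered 38 among those tested, with nqo1 higher, keap1a lower and 36 not called (median 0.06). Superoxide dismutases sod1 and sod2 changed by 0.21 ± 0.21 and 0.20 ± 0.30, catalase (cat) by -0.21 ± 0.15, and gclc, the rate-limiting enzyme of glutathione synthesis, by -0.09 ± 0.16. For cat the values were 562, 577 and 519 in the controls and 468, 472 and 490 with vitamin C, which do not overlap but missed the threshold (adjusted p = 0.729). At 3 libraries per group and this standard error, changes of this size were not detectable.

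**Figure D4:**
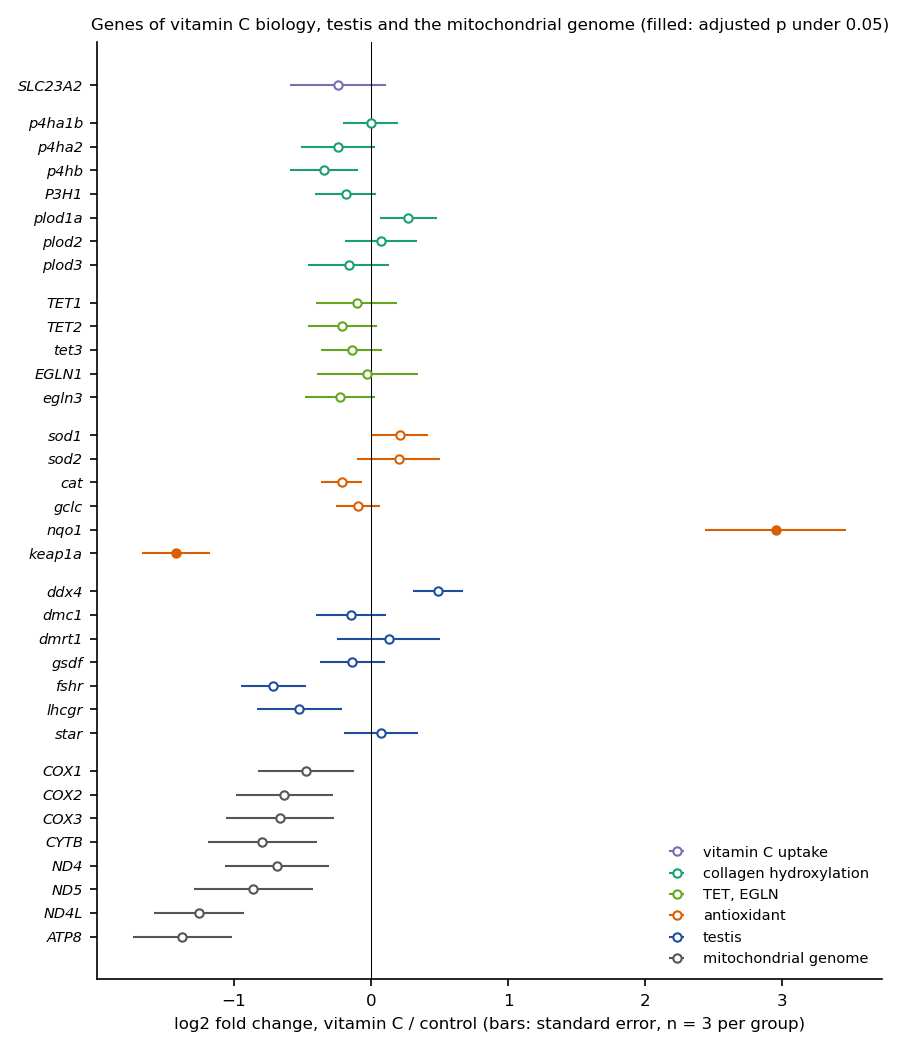
Log2 fold change of vitamin C alone against control (x axis) with its standard error (bars), n = 3 libraries per group, for genes of vitamin C uptake, collagen hydroxylation, TET and EGLN enzymes, antioxidant defence, testis cell types and the mitochondrial genome (y axis). Filled points passed an adjusted p under 0.05: nqo1 at 2.95 and keap1a at -1.42; the other genes shown did not.

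Genes of the testis itself showed 0 calls in every list: 20 tested genes of spermatogonia and early germ cells (median 0.31), 16 of meiosis (-0.19), 39 of spermatids and the sperm tail (-0.06), 19 of Sertoli cells (-0.14) and 25 of steroid hormone synthesis (0.04). The summed share of the spermatogonia list was 0.381 to 0.397% in the controls and 0.435 to 0.439% with vitamin C. That of the Sertoli list was 0.305 to 0.318% in the controls and 0.260 to 0.287% with vitamin C. The shares of the meiosis, sperm tail and steroid lists overlapped between the groups. These sums were not tested. ddx4, the germ cell RNA helicase, was at 13274, 13390 and 11793 in the controls and at 17634, 17178 and 19218 with vitamin C. Its groups did not overlap, but the log2 difference of 0.49 ± 0.18 missed the threshold (adjusted p = 0.381). The meiotic recombinase dmc1 changed by -0.15 ± 0.26.

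In the Sertoli list, fshr, the receptor for follicle-stimulating hormone, was at 756, 758 and 724 in the controls and at 437, 478 and 451 with vitamin C. Within each group the values were close, and the groups were far apart for that spread. The log2 difference of -0.71 ± 0.24 missed the threshold in the fit over 15 libraries (unadjusted p = 0.00809, adjusted p = 0.301) and passed in that over 6 (adjusted p = 0.00317). With perchlorate alone fshr ranged more widely, from 276 to 609 at the low dose and 541 to 859 at the high dose. gsdf changed by -0.14 ± 0.24, dmrt1, the testis-determining factor's close relative, by 0.13 ± 0.38, and the entries of amh, anti-Müllerian hormone, by -0.32 ± 0.27 (ENSORLG00000015951) and -0.10 ± 0.21 (ENSORLG00000005044). Of the Leydig cell genes, star, which moves cholesterol into mitochondria, changed by 0.07 ± 0.27, and lhcgr, the luteinizing hormone receptor, by -0.52 ± 0.31. The 11 tested genes of the thyroid axis had 0 calls and a median of -0.24, with the iodide transporter slc5a5 at -0.04 ± 0.34.

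Transcripts of the mitochondrial genome were lower in level with vitamin C, without passing the test. Their share of all normalized counts was 2.06, 2.20 and 2.90% in the controls and 1.588, 1.599 and 1.632% with vitamin C. The vitamin C libraries were close together and below all controls. An exact 2-sided permutation test gave p = 0.1, the smallest that 3 against 3 allows. Groups without overlap always give this p, so it adds nothing to the values. Of the 13 protein-coding genes 12 lay below the controls without overlap, beside 13.0% of all genes. The share is the sum of these 13 genes, so the count and the share are not separate evidence. The median log2 fold change of the 13 was -0.69, but 0 passed the adjusted threshold. ATP8, a subunit of ATP synthase, was at 203, 178 and 298 against 85.5, 80.5 and 87.3 (-1.38 ± 0.36, adjusted p = 0.149), and ND4L, of complex I, at 429, 335 and 466 against 177, 186 and 149 (-1.25 ± 0.33, adjusted p = 0.149). In vertebrate mitochondrial genomes these genes overlap their neighbours ATP6 and ND4, so their own counts are uncertain. In the fit over 6 libraries 6 of the 13 were called lower, beside 1.56% of all genes: ND2, ND4, ND4L, ND5, ATP8 and CYTB. In the limma fit over 15 libraries 2 of the 13 were lower at an unadjusted p under 0.05, beside 5.22% of all genes. The share of mitochondrial transcripts in all normalized counts was 2.72 to 3.83% at the high dose, 1.83 to 3.29% at the high dose with vitamin C and 0.407 to 2.39% at the low dose. The 71 tested nuclear genes of oxidative phosphorylation had a median of 0.15 and the 66 of cytosolic ribosomal proteins one of 0.17, with 0 calls in each.

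Few markers of other cell types were called. The skin-type epithelium list, which holds evpla, had 1 call among 35 tested genes and a median of -0.03, and the liver and plasma list, which holds apoda.2, 1 call among 36 and a median of 0.20. Of the 35 skin-type genes 8 lay wholly below the controls and 5 wholly above, where 13.0% and 14.6% of all genes did. Their summed share was 0.128, 0.129 and 0.161% in the controls and 0.112, 0.116 and 0.121% with vitamin C. There were 0 calls among 17 tested genes of kidney and gut epithelium (median -0.73), 10 of exocrine pancreas (0.47), 27 of immune cells (0.36), 43 of neurons and ion channels (0.33), 30 of skeletal muscle (0.13), 12 of smooth muscle (-0.24), 21 of vessels (0.08), 11 of red blood cells (0.07) and 26 of fibroblasts and matrix (0.14). The summed share of the kidney and gut genes was 0.0142, 0.0123 and 0.0279% in the controls and 0.0113, 0.0108 and 0.0102% with vitamin C, all below the controls. Without control replicate 3 the median of that list was -0.12, and it was -0.76 to -0.56 with any other of the 6 libraries left out. In the neuron and ion channel list 15 of 43 genes lay above the controls without overlap and 3 below, where 14.6% and 13.0% of all genes did. In the immune cell list 20 of 27 genes overlapped the controls. In that list 5 genes lay above the controls without overlap, not far from the 14.6% of all genes that did. The 5 were cd79a, coro1a, irf8, rag2 and zap70, with log2 differences of 0.26 to 1.35. Another 2 lay below, where 13.0% of all genes did, and none of these list members passed the threshold. The 2 below were both entries of mpx, the peroxidase of neutrophils, which, like the 5, were chosen after their values were seen; ENSORLG00000009297 was at 429, 608 and 487 against 198, 244 and 138 (-1.41 ± 0.47, adjusted p = 0.301).

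The remaining lists, of cell cycle, DNA replication and repair, heat shock, early response, circadian clock, cholesterol and fatty acid synthesis, fatty acid oxidation, glycolysis, p53 and interferon response genes, had 0 calls, with medians from -0.13 to 0.04. brca2, a DNA repair gene picked after its values were seen, was at 1051, 1194 and 877 against 747, 633 and 540 (-0.70 ± 0.21, adjusted p = 0.238). nr1d2b, a nuclear receptor of the circadian clock and also chosen so, was at 2597, 2374 and 2729 against 1751, 1663 and 1962 (-0.52 ± 0.19, adjusted p = 0.381). Both lay below the controls without overlap.

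**Figure D5:**
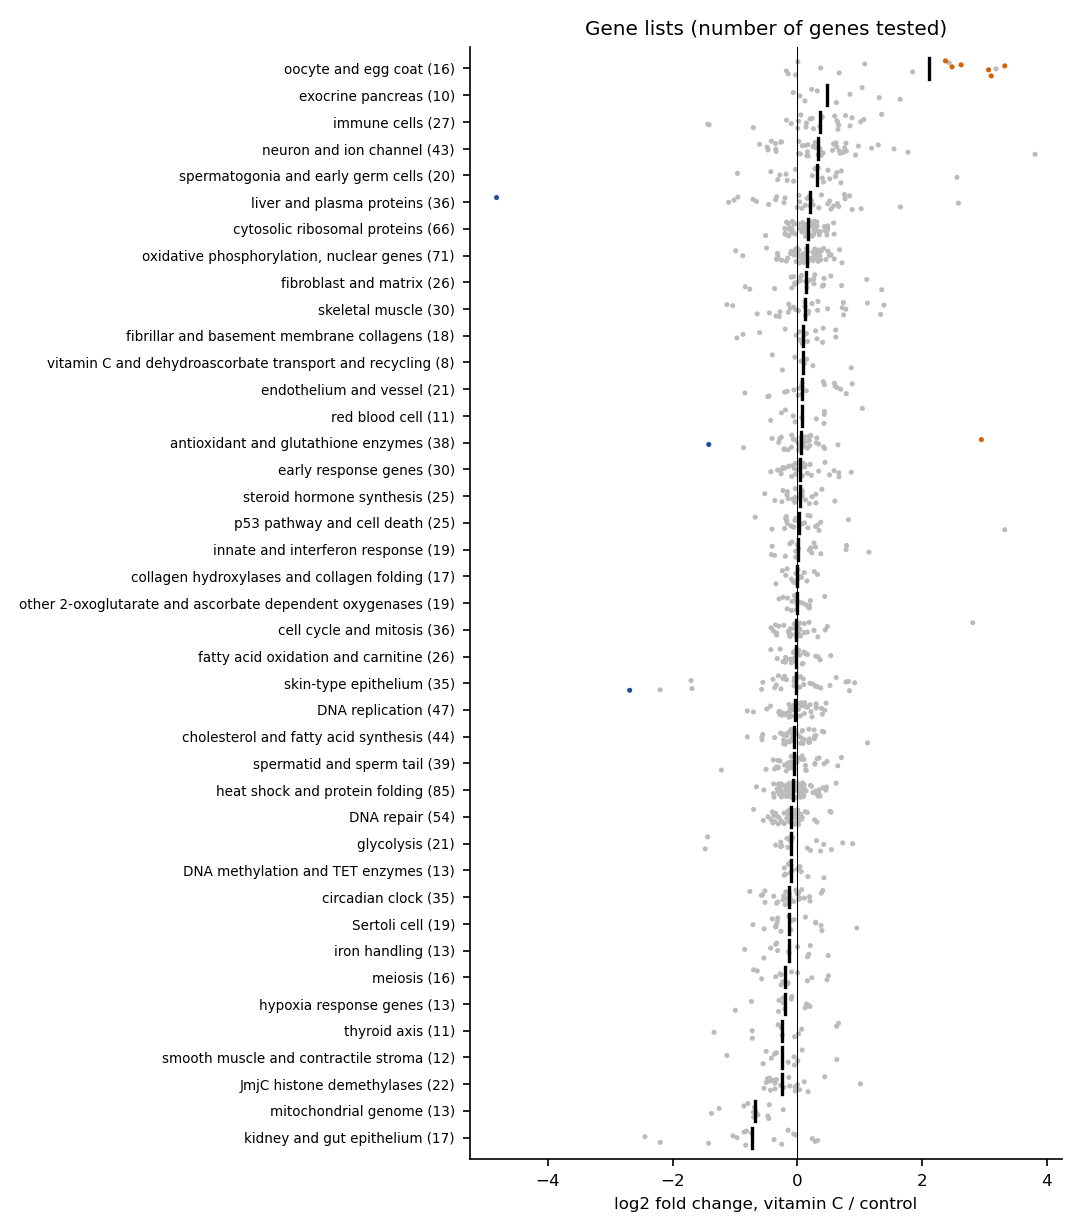
Log2 fold change of vitamin C alone against control (x axis) for each tested gene (points) of 41 gene lists (y axis, number tested in brackets), with the list's median as a black bar; orange points were called higher and blue points lower, n = 3 libraries per group. The oocyte and egg coat list has a median of 2.11; the lowest medians are -0.73 for kidney and gut epithelium and -0.69 for the mitochondrial genome.

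The study holds a separate comparison of vitamin C, in fish that also received the high dose of perchlorate, whose means come from neither control nor vitamin C alone libraries, although the fit and its spread are shared. There, of the 54 genes that rose with vitamin C alone, 4 were called higher and 4 lower with vitamin C, and of the 18 lower genes 1 was called higher and 0 lower, where 10.4% of all genes were called in either direction. The median log2 difference of the 54 was 0.39 there, beside 2.89 with vitamin C alone, and that of the 18 was 0.07, beside -2.67. Set against control, the 54 already had a median of 2.04 at the high dose alone, and 2.31 at the high dose with vitamin C. For the 18 these medians were -1.04 and -0.81. The same controls helped to choose these genes. zar1 was among the genes that rose with vitamin C both without and with perchlorate: it was at 23.0, 12.2 and 10.6 with the high dose and 59.8, 42.0 and 44.1 with the high dose and vitamin C (1.67 ± 0.47, adjusted p = 0.0346). Gb-alpha1 (ENSORLG00000005297) went the other way, by -3.14 ± 0.40 (adjusted p = 0.000568). The 2 vitamin C differences were themselves compared in the 15-library fit, which called 1436 genes (8.08% of those tested; 5.60% with a higher and 2.47% with a lower vitamin C difference under perchlorate). Among them were 32 of the 54 and 13 of the 18, but that comparison uses the same control and vitamin C libraries that chose these genes, so the counts are no independent evidence.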

How the data were processed

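Testis RNA was sequenced in 15 libraries, in 5 groups of 3 biological replicates. Per the labels' protocols, extraction used a ZR-Duet MiniPrep kit and library preparation a NEBNext Ultra II kit. Per the submitters' processing notes, fastp 0.23.2 and STAR 2.7.7a were run, followed by DESeq2 1.34.0. The genome build, counting step and strand setting are not given in any source used here, so overlapping and antisense genes cannot be told apart and no coordinates are printed. The values the authors deposited are a signal, a normalized read count, for each gene in each library. Dividing each library's values by its smallest value above 0 gave whole reads for 100% of values, within 0.001.

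The main test was limma 3.58.1 (R 4.3.3), with its trend option, on log2(value + 1), in 1 fit over 15 libraries, for genes whose mean reached 10, and Benjamini-Hochberg adjustment over all 17778 genes. The log2(value + 1) scale understates the change of low genes. Fold changes carry standard errors. Because a gene has 1 spread across the groups, error bars can be too large or too small for a single group. Replicates of a group differed by more than sampling noise: chi-square per degree of freedom was 3.52 to 14.8 in the control and vitamin C groups. The labels name no batch or date.

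Genes were named by a rule: among called genes that have a symbol, average 50 or more in the 6 libraries and do not overlap between groups, the 12 largest rises and the 12 largest falls, up to 3 called members of each of 41 gene lists, and a panel of vitamin C, antioxidant and testis genes. Members and lists were chosen with earlier results of these data known. Alternatives were fits over 6 or 12 libraries, pseudocounts of 0.5 and 5, no filter or a mean of at least 50, quantile and TMM normalization, edgeR 4.0.16 and DESeq2 1.42.0 on the recovered reads, a minimum 2-fold change, a replicate block, and leaving out each library. The limma step was run on simulated counts that had the same spread setting for every gene and no perchlorate effect. That run does not test the calls under the unequal spread of the real groups. Sequences are not printed here.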

Additional observations from a re-analysis of the deposited data

Results flagged for a closer look

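For 45 of the 72 genes called with vitamin C alone, 13 of them among the named genes, the vitamin C difference with the high dose of perchlorate differed from that without it by a test of the difference itself (limma, adjusted p under 0.05, n = 3 libraries per group). The same control and vitamin C libraries chose these genes, so none of these values is independent of that choice. For the 13 named genes the difference on the log2 scale was -5.99 and -5.69 for the Gb-alpha1 entries ENSORLG00000005210 and ENSORLG00000005297, -2.98 for ctss, -2.92 for alv, -2.71 for zpax1, -2.64 for si:dkey-208k4.2 and -2.07 for cth1. It was 1.59 for zgc:113142, 1.93 for keap1a, 2.90 for dusp3b, 3.21 for trhrb, 3.26 for evpla and 5.50 for apoda.2. Only the Gb-alpha1 entries of these 13 were also called, in the opposite direction, for vitamin C with the high dose, whose means come from other libraries but whose spread comes from the same fit, at -3.24 ± 0.50 and -3.14 ± 0.40.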

How the results depend on the processing

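Direction held for all 72 called genes under every setting run; the counts did not. For genes called higher (54) and lower (18), the fit over 6 libraries gave 394 and 277, that over 12 libraries 186 and 120, and DESeq2 134 and 123; a mean of at least 50 left 9 lower. Leaving out 1 library gave 6 to 59 higher and 2 to 25 lower. edgeR gave 48 (0.270%) and 18, and kept 62 of the 72. The cause was not tested. The test of whether the vitamin C difference depended on perchlorate called 1436 genes, 5055 in the fit over 12 libraries and 3153 by DESeq2, and 132 to 1825 with 1 library left out; the fit over 6 libraries cannot give it. The replicate block gave 66 higher, 23 lower and 1122 in that test. After each gene's group mean was subtracted on the log2 scale, same-numbered control and vitamin C libraries correlated at 0.15, -0.038 and 0.193. Control replicates 1 and 3 correlated best with the vitamin C library of the same number, and control replicate 2 with vitamin C replicate 1 (0.132). The labels do not state a pairing, and the numbers were not taken to pair the samples. Of single genes and lists under all settings, 1267 values kept their side of the threshold or their count, 102 lost a call, 2 gained 1, 92 moved and 0 reversed. Scaling by TMM factors shifted the median of all genes to 0.04. Counting error weighs most on genes with few reads and, of these 6 libraries, on control replicate 2 and vitamin C replicate 3, with 7.82 and 7.86 M reads. With 3 libraries per group no exact 2-sided permutation test of 1 group against another can go below 0.1.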

Other observations

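Further genes, picked after their values were seen, lay above the controls in all 3 vitamin C libraries. pou5f3, the fish relative of the pluripotency factor Oct4, was at 1.06, 1.25 and 0.670 normalized counts in the controls and at 10.6, 9.66 and 11.8 with vitamin C (log2 difference 2.56 ± 0.68, limma adjusted p = 0.156). birc5b, a survivin of the chromosomal passenger complex, was at 7.42, 4.98 and 12.7 against 49.5, 50.9 and 90.8 (2.81 ± 0.64, adjusted p = 0.0738). serpina7, named for the thyroxine-binding globulin of mammals, was at 18.03, 26.2 and 26.1 against 127, 123.04 and 190 (2.58 ± 0.58, adjusted p = 0.0732). None of these overlapped between groups, and each missed the threshold in the fit over 15 libraries and passed in that over 6. In both fits genes entered by a mean of at least 10 over all 15 libraries. Without the perchlorate libraries pou5f3 would not have reached that mean, and its control values are near the floor. The perchlorate values of these genes are not given here.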
